A study of Mus musculus with 20 samples.

Results

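The 9 genes described here encode parts of the complement system, an innate defence cascade of proteins that is also made inside the retina. They were taken as the rows of the deposited tables whose symbol is C1qa, C1qb, C1qc, C3, C4b, Cfb, Cfi, Cd55 or Serping1. All 9 were found among the 18754 genes listed for every library. Of these, 6 are activators (C1qa, C1qb, C1qc, C3, C4b and Cfb) and 3 are regulators that hold the cascade back (Cfi, Cd55 and Serping1), and each set is described apart. All 9 had a mean above the minimum FPKM of 0.1 and were tested in both experiments.

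Bulk RNA-Seq was carried out on 20 libraries of whole mouse retina on a C57BL/6J background, both sexes, with 5 libraries in each of 4 groups. In the first experiment, Atf6+/+ pups (WT OIR) and Atf6-/- pups (Atf6-/- OIR) underwent oxygen-induced retinopathy (OIR), in which pups are kept in 75% oxygen and then returned to room air, and retinas were taken at P17. In the second, P30 wild-type mice in normal air received an intravitreal injection of 1 µL of vehicle (labelled PBS) or of 10 µM Ceapin-A7, a small molecule that blocks ATF6 signalling, and retinas were taken a day later. The sources differ on the vehicle: the labels give both injections the same range of dimethyl sulfide in saline, and the study's methods give more DMSO in the control than in the Ceapin-A7 solution, so a part of the vehicle in the comparison cannot be told apart from that of the compound. ATF6 is a sensor of the endoplasmic reticulum that turns on genes of the unfolded protein response, and the question of both experiments was what its loss or block does to the retinal transcriptome. The Atf6-/- allele carries a premature stop codon in the germline, so every cell of the animal is affected from conception, while the PBS and Ceapin-A7 mice carry intact Atf6. The labels do not tie a library to an animal, litter or sex, so p-values measure the spread between these libraries.

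Values are FPKM, fragments divided by transcript length and by the number of mapped fragments, so levels of different genes can be compared. The sum of FPKM over all genes lay between 410599 and 456250 in each library, which is not a read depth, and relative depth read from the steps between low values was 1 in all libraries except Ceapin-A7 replicate 3, at 0.686. The Atf6 transcript was at 14.6 to 16.1 FPKM in WT OIR and at 13.6 to 16.8 FPKM in Atf6-/- OIR, and did not differ by limma (log2 fold change 0.03, adjusted p = 0.827). A premature stop codon need not lower the transcript, so this level does not check the genotype labels. Lens fibre genes, which mark lens left on the tissue, together reached from 6.25 FPKM in an Atf6-/- OIR library to 10040 FPKM in Ceapin-A7 replicate 1. Removal of these genes and of pigment epithelium markers before scaling and fitting left the C3 difference between the genotypes at -0.77. Such removal bears on the scaling and not on C3 itself, so the part of carried-over tissue in the C3 level was not tested. PBS replicate 1 was the highest PBS library for 8 of the 9 genes, all except Cd55. Log2 fold changes after Ceapin-A7 that rest on it are given with and without it, while correlations are given over all 20 libraries only.

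C1q, built from the chains C1qa, C1qb and C1qc, starts the classical pathway by binding antibody, debris or synapses, and its bound proteases cleave C4 and C2. The convertases made in this way, or from factor B in the alternative pathway, cleave C3, the protein on which all pathways meet, and its fragments mark targets for phagocytes that carry complement receptors. C1 inhibitor (Serping1) blocks the proteases of C1, CD55 speeds the decay of the convertases, and factor I (Cfi) cuts the active fragments of C3 and C4. In the retina, C1q comes mainly from microglia, and complement is known for the pruning of synapses and for its rise in injury and in age-related degeneration.

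The C1q chains lie next to each other on chromosome 4 in the order C1qb, C1qc and C1qa, by the GRCm38.p6 RefSeq annotation. C4b, Cfb and C3 are on chromosome 17, Cfi on 3, Cd55 on 1 and Serping1 on 2. In the deposited tables they carry the NCBI gene numbers 12259 (C1qa), 12260 (C1qb), 12262 (C1qc), 12266 (C3), 12268 (C4b), 14962 (Cfb), 12630 (Cfi), 13136 (Cd55) and 12258 (Serping1). C4b has a close copy, C4a, that was not in the tables used here, and Cd55 has the copy Cd55b beside it, listed at 0 in nearly every library (mean 0.006 FPKM in WT OIR and 0 in the other groups). The counting could have split reads between such copies, so the levels of C4b and Cd55 are less certain than the others.

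RefSeq promoters (GRCm38.p6, not the GRCm39 build to which the authors aligned) were found for 4 of the 9 genes: C1qb, C1qc, C3 and Cd55. Each is 300 bases, from 250 before the annotated start to 50 after it, printed 5′ to 3′ on the strand of the gene. Those of C1qb and C1qc are shown because these chains moved together across libraries, and that of C3 because its WT OIR and Atf6-/- OIR libraries did not overlap. C1qb is at chr4:136886151-136886450, C1qc at chr4:136892865-136893164 and C3 at chr17:57228087-57228386, all on the minus strand. Capitals mark matches to 6 motifs.
C1qb: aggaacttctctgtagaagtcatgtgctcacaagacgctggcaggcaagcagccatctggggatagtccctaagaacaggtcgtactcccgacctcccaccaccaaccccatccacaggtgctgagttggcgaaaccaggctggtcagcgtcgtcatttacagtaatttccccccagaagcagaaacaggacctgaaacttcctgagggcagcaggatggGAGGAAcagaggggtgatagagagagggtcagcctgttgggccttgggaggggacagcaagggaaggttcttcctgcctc
C1qc: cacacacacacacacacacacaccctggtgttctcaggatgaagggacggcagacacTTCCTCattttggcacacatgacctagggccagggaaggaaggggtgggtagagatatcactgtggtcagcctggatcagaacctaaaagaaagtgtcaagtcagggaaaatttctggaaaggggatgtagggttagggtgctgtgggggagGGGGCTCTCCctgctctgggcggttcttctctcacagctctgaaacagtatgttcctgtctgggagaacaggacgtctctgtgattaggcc
C3: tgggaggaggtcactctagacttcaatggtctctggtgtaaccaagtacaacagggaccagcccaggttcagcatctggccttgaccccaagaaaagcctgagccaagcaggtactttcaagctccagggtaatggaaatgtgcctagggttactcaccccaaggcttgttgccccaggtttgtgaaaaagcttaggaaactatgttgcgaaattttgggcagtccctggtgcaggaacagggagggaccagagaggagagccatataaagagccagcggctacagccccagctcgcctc
The motifs were the PU.1 core GAGGAA, the ISRE core GAAANNGAA, the GAS element TTCNNNGAA, the UPRE TGACGTGG, the NF-kB consensus and the ERSE, which is CCAAT and CCACG parted by 9 bases. Both strands were searched, and no matches overlapped. The C1qb promoter held the PU.1 core from base -30 to -25 before the start. In C1qc the same core lay on the other strand from -193 to -188, with an NF-kB match from -41 to -32. PU.1 cores were found in 28.3% and NF-kB matches in 4.51% of all 32851 RefSeq promoters. None of the 6 was found in the C3 or Cd55 window, where the ATF6 elements ERSE and UPRE are held by 0.119% and 0.676% of all promoters, the ISRE core by 8.56% and GAS by 8.3%.

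The C1q chains were the activators with the highest levels, and these levels split the experiments rather than the treatments. C1qa was at 22.5, 22.9, 30.1, 36.1 and 22.9 FPKM in WT OIR and at 25.2, 28.8, 25.7, 23.2 and 19.5 FPKM in Atf6-/- OIR. It was at 9.58, 6.9, 9.36, 8.37 and 8.79 FPKM in PBS and at 7.01, 8.2, 11.9, 10.3 and 11.2 FPKM in Ceapin-A7. Every P17 OIR library was above every P30 library, while the genotypes and the injected groups each overlapped. C1qb ranged from 20.5 to 36.3 FPKM and C1qc from 20.5 to 37.6 FPKM over the 10 OIR libraries. Over the 10 P30 libraries C1qb ranged from 8.16 to 13.8 FPKM and C1qc from 7.9 to 13.9 FPKM.

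Loss of Atf6 left the C1q chains within the spread of the libraries. The mean of C1qa was 26.9 ± 6.05 FPKM (SD, n = 5) in WT OIR and 24.5 ± 3.44 FPKM (SD, n = 5) in Atf6-/- OIR. On the log2(FPKM + 0.1) scale the difference was -0.10 for C1qa (95% interval -0.38 to 0.17), -0.16 for C1qb (-0.43 to 0.11) and -0.06 for C1qc (-0.36 to 0.25). These intervals leave out changes of 2-fold in either direction, since a log2 change of 1 lies outside each of them. After Ceapin-A7 the differences were 0.16 for C1qa (-0.15 to 0.46), 0.24 for C1qb (-0.07 to 0.55) and 0.06 for C1qc (-0.32 to 0.43). Without PBS replicate 1 they were 0.20, 0.33 and 0.17, with an unadjusted p of 0.0295 for C1qb by limma, which was 0.0189 without Ceapin-A7 replicate 1. With all libraries the adjusted p-values by limma were between 0.533 and 0.914 after Ceapin-A7, and between 0.549 and 0.852 in OIR. Whole retina was sequenced, so fewer cells of a type and less RNA per cell cannot be told apart.

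C3, the central component, was the member with the clearest split between genotypes. Its level was 4.81, 2.91, 2.41, 4.16 and 2.59 FPKM in WT OIR and 1.45, 1.62, 2.2, 2 and 2.03 FPKM in Atf6-/- OIR. All 5 Atf6-/- OIR libraries lay below all 5 WT OIR libraries, although the nearest, at 2.2 and 2.41 FPKM, were close. The mean was 3.38 ± 1.05 FPKM (SD, n = 5) against 1.86 ± 0.312 FPKM (SD, n = 5), a fold of 0.585 on the log2(FPKM + 0.1) scale (log2 fold change -0.77, SE 0.19, 95% interval -1.19 to -0.36). By limma the unadjusted p was 0.00165, the 64th smallest of 15704, and the adjusted p was 0.357, so C3 did not pass the test over all genes. A two-sided exact permutation over the libraries had p = 0.00794, the smallest that 5 against 5 libraries can give. Leaving out each library in turn gave log2 fold changes from -0.88 to -0.63, each with an unadjusted p of 0.00538 or less.

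In the P30 retina C3 was at 3.69, 1.63, 1.5, 2.24 and 0.8 FPKM after PBS and at 0.78, 1.11, 1.94, 1.14 and 1.48 FPKM after Ceapin-A7. The groups overlapped over most of their range, and the highest value was PBS replicate 1. The log2 fold change was -0.48 (95% interval -1.22 to 0.27, adjusted p = 0.604 by limma). It was -0.22 without PBS replicate 1 and -0.74 without PBS replicate 5, the lowest PBS library, where the unadjusted p was 0.0257. The effect of the knockout on C3 minus that of Ceapin-A7 was -0.30 (-1.16 to 0.56, adjusted p = 0.848 by limma), so the interval covers both no difference and a difference of over 2-fold. It was -0.55 without PBS replicate 1 and -0.03 without PBS replicate 5.

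C4b, cleaved by C1 to start the classical convertase, had a lower mean in Atf6-/- OIR but with overlap. It was at 15.3, 11.0, 13.6, 8.65 and 13.8 FPKM in WT OIR and at 5.74, 9.87, 8.95, 5.34 and 13.7 FPKM in Atf6-/- OIR. The overlap came from WT OIR replicate 4, below 3 of the Atf6-/- OIR libraries, and from Atf6-/- OIR replicate 5, above 3 of the WT OIR libraries. The log2 fold change was -0.55 (SE 0.25, 95% interval -1.10 to -0.00399, unadjusted p = 0.0486, adjusted p = 0.390 by limma), and the exact permutation p was 0.119. Of the 10 fits that left out 1 library, 2 had an unadjusted p of 0.05 or less, those without WT OIR replicate 4 (log2 fold change -0.69) and without Atf6-/- OIR replicate 5 (-0.75). In these fits many genes passed that threshold, 3763 of 15702 and 4014 of 15718, against 2002 of 15704 with all libraries.

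After injection C4b did not separate the groups. PBS libraries were at 12.2, 5.41, 5.59, 6.74 and 4.62 FPKM and Ceapin-A7 libraries at 3.35, 6.27, 12.3, 5.72 and 6.95 FPKM. The group means were nearly equal, at 6.91 ± 3.04 FPKM (SD, n = 5) and 6.92 ± 3.3 FPKM (SD, n = 5), each with 1 library near 12 FPKM. The log2 fold change was -0.03 (-0.73 to 0.67, adjusted p = 0.977 by limma), and it turned to 0.20 without PBS replicate 1.

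Cfb, the protease of the alternative pathway convertase, was the least abundant activator. It ranged from 0.08 to 0.64 FPKM in WT OIR, from 0.14 to 0.31 in Atf6-/- OIR, from 0.12 to 0.45 after Ceapin-A7 and from 0.09 to 0.21 in 4 of the PBS libraries, with PBS replicate 1 at 0.99 FPKM. All 4 groups overlapped, and values this low, given to 2 decimals, carry few fragments. The log2 fold change was -0.26 (-0.97 to 0.45) in OIR and 0.02 (-0.94 to 0.97) after Ceapin-A7, and the latter was 0.43 without PBS replicate 1, with an unadjusted p of 0.164. The OIR value was -0.52 without WT OIR replicate 2 and -0.01 without WT OIR replicate 3.

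**Figure D1:**
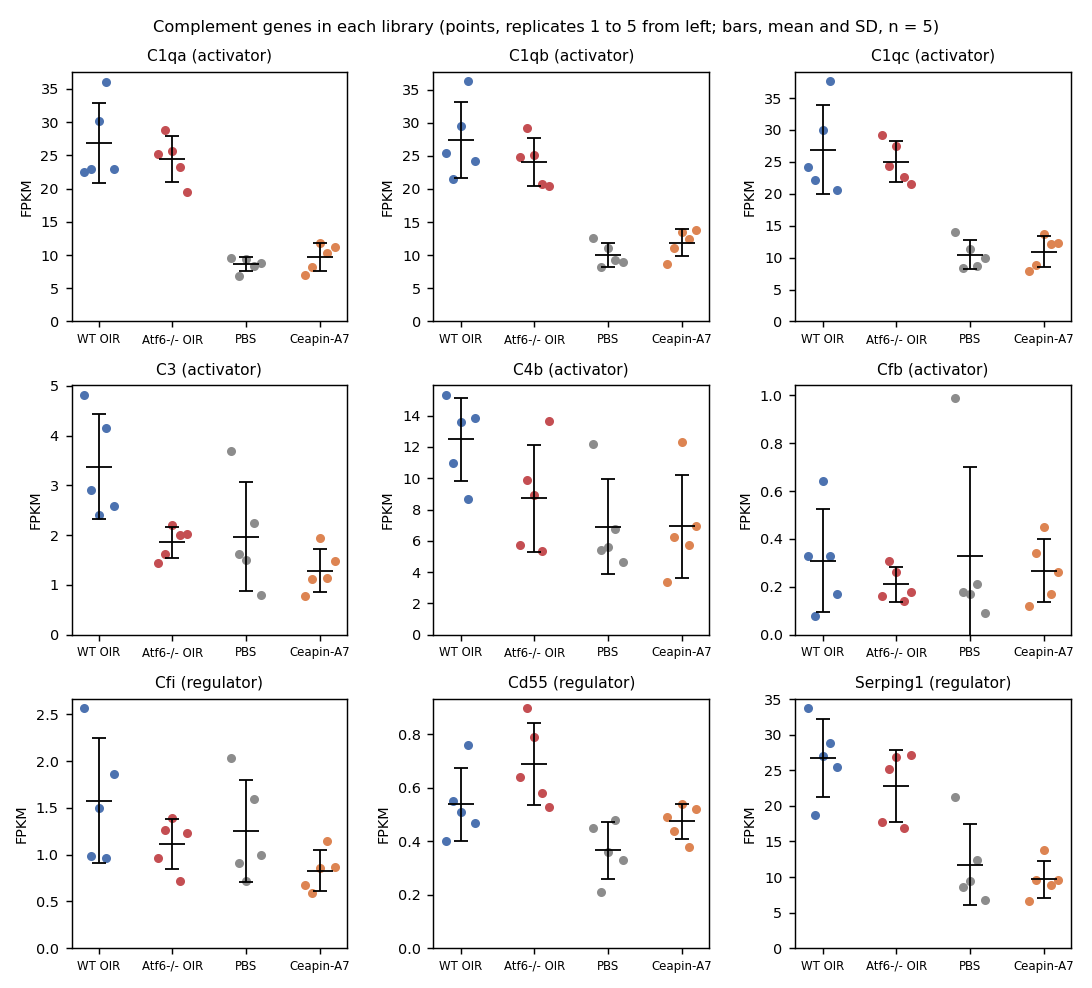
FPKM of each complement gene (vertical axes, starting at 0) in the 5 libraries of each group (points, replicates 1 to 5 from left to right), with the mean and SD (bars, n = 5, SD bars cut at 0 for Cfb in PBS). For C1qa, C1qb and C1qc every OIR library lies above every P30 library, and for C3 the 5 Atf6-/- OIR libraries, at 1.45 to 2.2 FPKM, lie below the 5 WT OIR libraries, at 2.41 to 4.81 FPKM.

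Of the regulators, Serping1, the C1 inhibitor, was by far the most abundant, at a level like that of the C1q chains in OIR. It was at 33.7, 18.8, 27.0, 28.9 and 25.4 FPKM in WT OIR and at 17.8, 25.3, 26.9, 16.9 and 27.1 FPKM in Atf6-/- OIR. It was at 21.2, 8.66, 9.45, 12.4 and 6.82 FPKM in PBS and at 6.62, 9.63, 13.8, 8.81 and 9.64 FPKM in Ceapin-A7. The genotypes overlapped broadly and so did the injected groups, while the OIR libraries were above the P30 libraries except for PBS replicate 1. The log2 fold change was -0.22 (-0.60 to 0.16, adjusted p = 0.551 by limma) for the knockout. For Ceapin-A7 it was -0.19 (-0.80 to 0.41, adjusted p = 0.802 by limma), and 0.05 without PBS replicate 1.

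Cfi, which inactivates the fragments of C3 and C4, had the lower mean in Atf6-/- OIR and in Ceapin-A7, with overlap in both. It ranged from 0.96 to 2.57 FPKM in WT OIR and from 0.72 to 1.39 FPKM in Atf6-/- OIR, a log2 fold change of -0.39 (-0.97 to 0.18, adjusted p = 0.494 by limma). In the P30 retina it ranged from 0.72 to 2.03 FPKM after PBS and from 0.59 to 1.15 FPKM after Ceapin-A7, a log2 fold change of -0.48 (-1.04 to 0.08, adjusted p = 0.509 by limma). Both differences were within the spread of the libraries by limma. WT OIR replicate 1 and PBS replicate 1 were the highest libraries of their groups for Cfi, and without them the differences were -0.20 and -0.29.

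Cd55, the membrane inhibitor of the convertases, was the only member with a higher mean in Atf6-/- OIR than in WT OIR. It was at 0.4, 0.55, 0.51, 0.76 and 0.47 FPKM in WT OIR and at 0.64, 0.9, 0.79, 0.58 and 0.53 FPKM in Atf6-/- OIR. It was at 0.45, 0.21, 0.36, 0.48 and 0.33 FPKM in PBS and at 0.49, 0.44, 0.54, 0.38 and 0.52 FPKM in Ceapin-A7. After Ceapin-A7 its mean was also the higher, and the groups overlapped in both experiments. The log2 fold changes were 0.32 (-0.04 to 0.69, unadjusted p = 0.0795, adjusted p = 0.421) and 0.33 (-0.08 to 0.73, unadjusted p = 0.102, adjusted p = 0.522) by limma, and the exact permutation p was 0.0794 in each. The effects of the knockout and of Ceapin-A7 on Cd55 differed by -0.00378 (-0.52 to 0.51, adjusted p = 0.997 by limma).

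Counted together, the knockout comparison called no member and the members past the unadjusted threshold were the activators C3 and C4b. By limma 0 of the 9 members had an adjusted p under 0.05 for Atf6-/- OIR minus WT OIR, where 0.0318% of all 15704 genes did. At an unadjusted p of 0.05 or less and lower in Atf6-/- OIR there were 2 members, C3 and C4b, against 5.83% of all genes, and no member was higher. Cd55, with the higher mean, passed this threshold with quantile normalization (unadjusted p = 0.0377 by limma), with array weights (0.0136) and without WT OIR replicate 4 (0.0241). In these settings 2028 of 15704, 5750 of 15704 and 3763 of 15702 genes passed it in either direction, in the same order. C3 was the only member whose groups did not overlap, against 0.694% of all genes that were lower in Atf6-/- OIR without overlap. The median log2 fold change was -0.21 over the 6 activators and -0.22 over the 3 regulators, beside 0.00279 over all genes tested, and 8 of the 9 members were lower in mean.

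Ceapin-A7 called no member at either threshold. By limma 0 of 9 had an adjusted p under 0.05, where 0% of all 15408 genes did, and 0 of 9 had an unadjusted p of 0.05 or less, where 10.4% did. The median log2 fold change was 0.04 over the activators and -0.19 over the regulators, beside 0.000734 over all genes, with 5 members higher and 4 lower in mean. The difference of the effects likewise gave 0 of 9 members at an adjusted p under 0.05, against 0.032% of all 15628 genes, and 0 of 9 at an unadjusted p of 0.05 or less, against 9.2%. C1qb came nearest, with the knockout effect below that of Ceapin-A7 by 0.40 (difference -0.40, 95% interval -0.81 to 0.02, unadjusted p = 0.0620, adjusted p = 0.560 by limma). Without PBS replicate 1 and Ceapin-A7 replicate 3, a setting chosen after seeing the data, its unadjusted p was 0.0436, and it was under 0.05 in 5 of the 20 fits that left out 1 library.

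**Figure D2:**
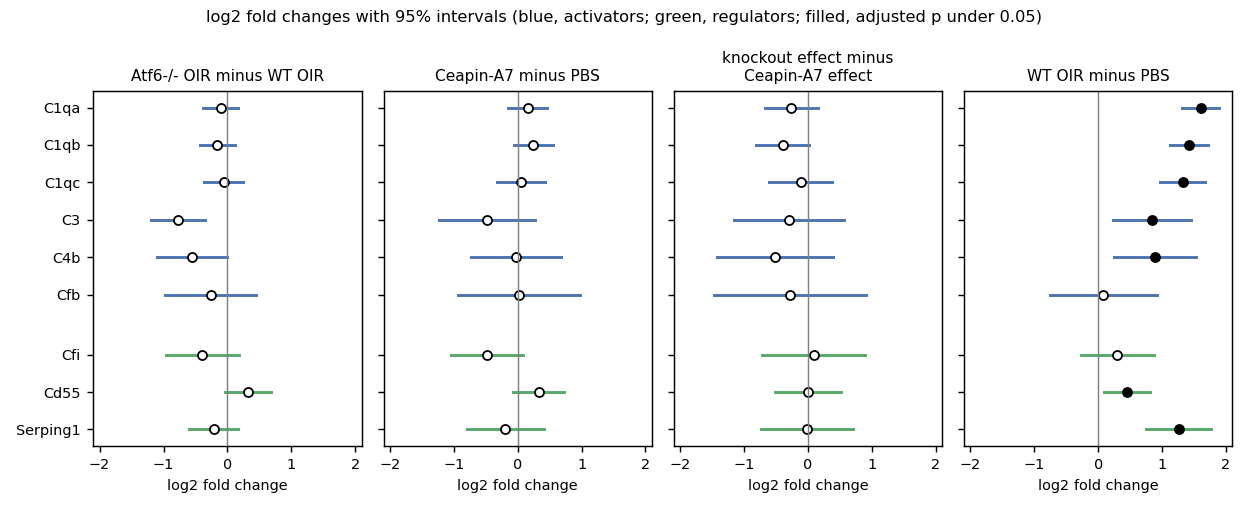
log2 fold changes of the 9 genes (horizontal axes) with 95% intervals in the comparisons named above each panel, activators in blue and regulators in green. Filled points mark an adjusted p under 0.05: there are none in the first 3 panels and 7 in the last, and the C3 interval of the first panel, -1.19 to -0.36, lies below 0.

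The order of the levels over the 4 groups followed the experiment for some members. For C1qa, C1qb, C1qc, C4b, Cd55 and Serping1 both OIR means lay above both P30 means. By mean log2 value this held for C3 too, where Atf6-/- OIR was above PBS by only 0.07. The fold of WT OIR over PBS was 3.03 for C1qa (adjusted p = 1.06e-08), 2.67 for C1qb (5.25e-08), 2.505 for C1qc (1.22e-06) and 2.39 for Serping1 (0.000173), by limma over all 20 libraries on the log2(FPKM + 0.1) scale. The fold was 1.85 for C4b (adjusted p = 0.0174), 1.79 for C3 (0.0183) and 1.37 for Cd55 (0.0319) by limma, while Cfi (1.23, adjusted p = 0.361) and Cfb (1.06, adjusted p = 0.880) did not pass the test. In all, 7 members were called higher in WT OIR, against 29.7% of all genes, and the groups did not overlap for C1qa, C1qb and C1qc, against 19.9%. These groups came from tables deposited apart and differ in age, oxygen history, injection and experiment, which cannot be told apart. Without PBS replicate 1 the log2 fold changes were larger, at 1.095 for C3, 1.113 for C4b and 1.5 for Serping1, against 0.84, 0.89 and 1.26 with it. Only 4 members were called without PBS replicate 5, when C3, C4b and Cd55 had adjusted p-values of 0.0670, 0.0509 and 0.0602 by limma. The C3 call was also lost without WT OIR replicate 1 (adjusted p = 0.0564 by limma), and the Cd55 call without WT OIR replicate 2 (0.0569) or 4 (0.0993) or PBS replicate 2 (0.111). Array weights also took both calls away (adjusted p = 0.0808 for C3 and 0.0585 for Cd55 by limma), leaving 5 members, and quantile normalization took that of Cd55 (log2 fold change 0.12, adjusted p = 0.533 by limma).

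Within the order, most neighbours did not differ beyond their spread by the exact permutation test on log2 values scaled over all 20 libraries. For C1qa the OIR groups were next to each other (p = 0.524) and so were the P30 groups (p = 0.302 by exact permutation), but Atf6-/- OIR was above PBS and above Ceapin-A7 with p = 0.00794 each. For C3 the order from the top was WT OIR, Atf6-/- OIR, PBS and Ceapin-A7 by mean log2 value. By exact permutation WT OIR stood above Atf6-/- OIR (p = 0.00794), Atf6-/- OIR and PBS lay within their spread (difference 0.07, p = 0.857), and PBS overlapped Ceapin-A7 (p = 0.262). For Cd55 the order was Atf6-/- OIR, WT OIR, Ceapin-A7 and PBS, and only groups that were not neighbours were free of overlap: Atf6-/- OIR stood above Ceapin-A7 (difference 0.45, p = 0.00794) and above PBS (0.77, p = 0.00794, exact). Before that scaling, the Cd55 values of Atf6-/- OIR and Ceapin-A7 overlapped, the former going down to 0.53 FPKM and the latter up to 0.54 FPKM. For Cfb no pair of groups had an exact p under 0.468.

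The ratios between the C1q chains varied little beside those of C3 to C1qa. The ratio of C1qb to C1qa had a median of 1.01 in WT OIR, 0.985 in Atf6-/- OIR, 1.18 in PBS and 1.22 in Ceapin-A7, with a range over all libraries from 0.893 to 1.34. The ratio of C1qc to C1qa ranged from 0.848 to 1.455 over all libraries, and from 1.04 to 1.455 in PBS. The ratio of C3 to C1qa ranged from 0.0563 to 0.385 over all libraries, with a median of 0.115 in WT OIR, 0.0857 in Atf6-/- OIR, 0.236 in PBS and 0.132 in Ceapin-A7. The ratio of C3 to its upstream inhibitor Serping1 ranged from 0.0892 to 0.155 in WT OIR and from 0.0642 to 0.118 in Atf6-/- OIR. These ranges overlapped, although the C3 levels did not.

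With the group means removed, the members fell into sets that differed from the split into activators and regulators. Over the 20 libraries, Pearson's r of log2 values centred within groups was 0.91 between C1qa and C1qb and 0.88 between C1qc and either of them. Serping1 followed C4b (0.85), Cfb (0.84) and C3 (0.84) more than it followed C1qa (0.35). Cfi was unrelated to C1qa (0.00143) and was highest with Serping1 (0.67), and Cd55 was highest with C1qa (0.59). These correlations are descriptions, since the 5 libraries of a group share the mean that was removed and all genes of a library share its depth. They include PBS replicate 1, far above the other PBS libraries for C4b and Cfb, and what they would be without it was not tested.

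**Figure D3:**
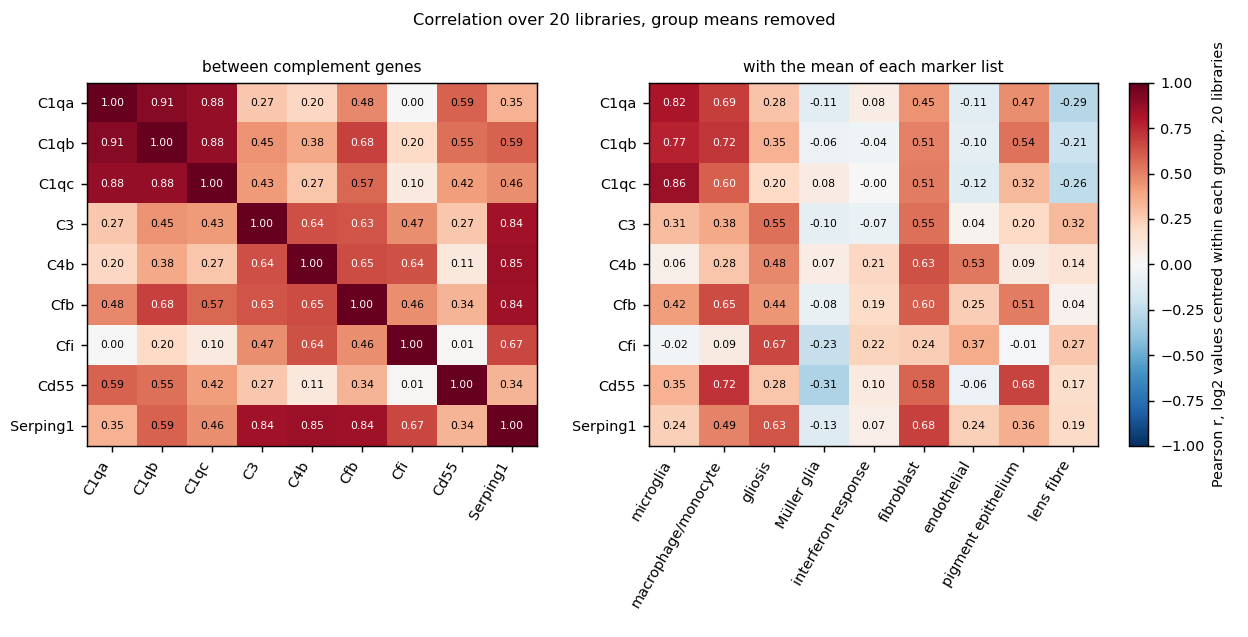
Pearson correlation over 20 libraries of log2 values centred within each group, between the complement genes (left) and between each gene and the mean of each marker list (right). C1qa, C1qb and C1qc are most like each other (0.88 to 0.91) and like the microglia list (0.77 to 0.86), while Serping1 is like C3, C4b and Cfb (0.84 to 0.85).

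The genes most like each member, among those with a mean of at least 1 FPKM, gave the same picture. For C1qb the closest outside C1q was Tyrobp (r = 0.86), a signalling adaptor of microglia. The closest to C3 was Chil1 (0.85), ahead of Serping1 and Tmem176a (0.83). Serping1 was closest to Serpina3n (0.90), a serpin of reactive glia, then to Pcolce (0.87) and Alad (0.86). C4b was closest to Cyba (0.88), an oxidase subunit, then to Alad (0.88) and Fkbp10 (0.86), and Cfb to Serping1, Efemp2 (0.82) and Tmem176a (0.81). Cfi was closest to Bmp1 (0.85), Mxra7 (0.85) and Pbxip1 (0.80), and Cd55 to Fcgr2b (0.79), an inhibitory antibody receptor, Elovl1 (0.78) and Nectin3 (0.78).

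Marker levels of other cell types moved with some of these genes. The 16 microglia markers summed to between 81.3 and 138 FPKM in the OIR libraries and between 60.6 and 105 FPKM in the P30 libraries, with none at 0 throughout a group. The highest P30 sum, that of PBS replicate 1, rested largely on 1 gene, Olfml3, at 37.6 FPKM there and at a mean of 12.9 ± 13.8 FPKM (SD, n = 5) in PBS. Of the 16 markers 11 were called higher and none lower for WT OIR minus PBS (median log2 fold change 0.73), where 29.7% of all genes were called higher. The C1q log2 fold changes were 1.325 to 1.601. Single markers went from -0.47 (Olfml3) to 2.22 (Fcrls), with Trem2 at 1.79, Cd68 at 1.65 and Csf1r at 1.46, the rest below the C1q range and 2 of the 16 under 0. For the knockout 0 of 16 had an adjusted p under 0.05 by limma (median -0.08), and at an unadjusted p of 0.05 or less only Aif1, a macrophage calcium-binding protein, was lower (1.84 ± 0.256 against 1.39 ± 0.285 FPKM, SD, n = 5, log2 fold change -0.37). After Ceapin-A7 0 of 16 had an adjusted p under 0.05 (median 0.11), and P2ry12, a receptor of resting microglia, was higher in mean at an unadjusted p of 0.00332 (0.966 ± 0.347 against 1.62 ± 0.166 FPKM, SD, n = 5). The 10 macrophage and monocyte markers summed to between 12.1 and 28.4 FPKM over all libraries, and their within-group mean had its highest r with Cd55 (0.72). The part of cell number in the C1q levels was not tested.

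The 12 gliosis genes, which Müller glia and astrocytes raise after injury, summed to between 500 and 1018 FPKM in WT OIR, 389 and 739 FPKM in Atf6-/- OIR, 244 and 800 FPKM in PBS and 215 and 359 FPKM in Ceapin-A7. All 12 were lower in mean log2 value in Atf6-/- OIR (median -0.38), 3 of them at an unadjusted p of 0.05 or less and 0 at an adjusted p under 0.05 by limma. Over all genes 5.83% were lower at this unadjusted threshold. After Ceapin-A7 10 of 12 were lower (median -0.75), 6 at an unadjusted and 0 at an adjusted p. There 820 of all 15408 genes were lower at the unadjusted threshold. The library with the highest sum, WT OIR replicate 1, was also the highest of its group for C3, C4b, Cfi and Serping1. In Ceapin-A7 the library with the highest gliosis sum was the highest for C3 too, but in Atf6-/- OIR and PBS it was not. Within groups the gliosis mean had an r of 0.55 with C3, 0.67 with Cfi and 0.63 with Serping1 but of 0.28 with C1qa. In OIR Lcn2 was at 27.6 ± 7.57 against 18.6 ± 5.28 FPKM, Edn2 at 32.4 ± 15.8 against 17.3 ± 7.25 FPKM and C1rl at 0.456 ± 0.0532 against 0.316 ± 0.0948 FPKM (SD, n = 5, WT OIR before Atf6-/- OIR). Of these, Lcn2 encodes lipocalin 2, a secreted protein of reactive glia, and Edn2 a photoreceptor signal of injury. The Ceapin-A7 comparison had Gfap, the glial filament, at 32.2 ± 9.91 FPKM after PBS and 18.9 ± 7.29 FPKM after Ceapin-A7, with Vim, Stat3 and Osmr also lower in mean (log2 fold changes -0.70, -0.69 and -0.93). The part of gliosis in the C3 difference was not tested.

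Other marker lists varied between groups beside these genes. The fibroblast list, a sign of scleral or choroidal tissue, summed to between 5.76 and 59.3 FPKM in PBS, with PBS replicate 1 the highest, and between 17.2 and 89.4 FPKM in Ceapin-A7. In OIR it summed to between 35.8 and 60.2 FPKM. Within groups its mean had an r of 0.68 with Serping1, 0.63 with C4b, 0.60 with Cfb and 0.55 with C3. The gliosis mean had 0.63, 0.48, 0.44 and 0.55 with these genes in the same order. With Cfi the fibroblast mean had 0.24 and the gliosis mean 0.67. The 10 Müller glia markers summed to between 967 and 2487 FPKM, and r lay between -0.31 and 0.08 for the 9 members. Of the 18 interferon response genes, which can raise complement genes, 17 had a lower mean log2 value in Atf6-/- OIR (median -0.29), 2 of them at an unadjusted and 0 at an adjusted p by limma, and after Ceapin-A7 9 were lower (median 0.00148). Over all genes 5.83% were lower in Atf6-/- OIR at the unadjusted threshold. No gene of the remaining lists was called by limma in either experiment. For the knockout the median log2 fold change was 0.62 over 12 genes of the retinal pigment epithelium, -2.52 over 13 lens fibre genes, 0.11 over 9 fibroblast genes, -0.30 over 11 endothelial genes, 0.12 over 10 Müller glia genes, 0.11 over 10 rod genes and -0.09 over 9 macrophage and monocyte genes. For Ceapin-A7 it was -0.09, 1.095, 0.53, -0.06, 0.21, 0.15 and 0.48 over these lists in the same order, with 14 lens fibre, 10 fibroblast and 8 macrophage and monocyte genes tested. Without WT OIR replicates 2 and 5, the libraries with the highest lens sums of their group, the C3 difference was -0.92 (unadjusted p = 0.00206 by limma, a setting chosen after seeing the data). In the same setting the unadjusted p of C4b was 0.118, while Cfb (log2 fold change -0.74, unadjusted p = 0.0175 by limma) and C1qb (-0.30, unadjusted p = 0.0344) passed the unadjusted threshold, and no member had an adjusted p under 0.05. Of all 15707 genes 1431 passed that unadjusted threshold there.

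**Figure D4:**
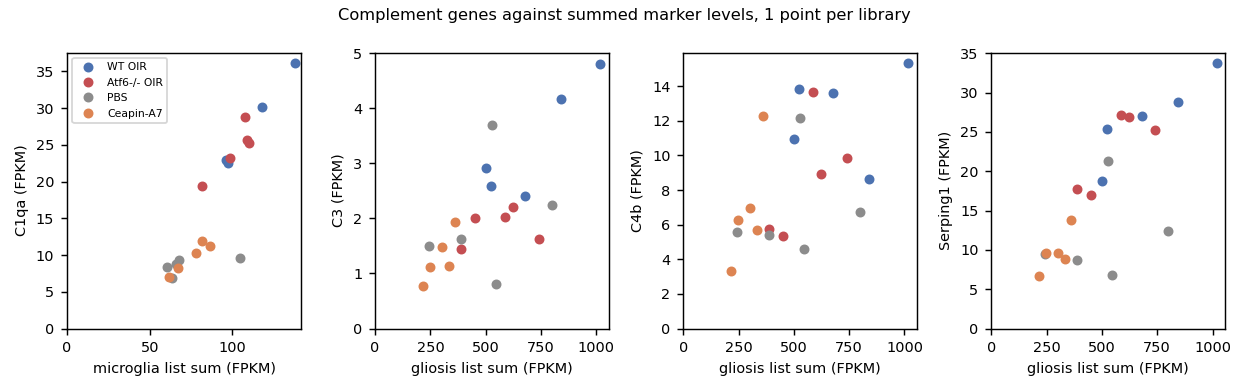
C1qa against the summed FPKM of 16 microglia markers, and C3, C4b and Serping1 against the summed FPKM of 12 gliosis genes (all axes in FPKM and starting at 0), 1 point per library, coloured by group. WT OIR replicate 1 is at the top right for C3, C4b and Serping1, with a gliosis sum of 1018 FPKM, and the P30 libraries hold less C1qa than OIR libraries at like microglia sums.

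The rest of the cascade was sparse in the whole retina. Of 23 other components, 22 were listed and 11 had a mean high enough to be tested in OIR and 8 at P30. The most abundant was properdin (Cfp), the stabiliser of the alternative convertase, at 16.2 FPKM in WT OIR and 10.0 FPKM in PBS. C1ra and C1s1, the proteases of C1 and named for that role, were at 1.78 and 0.928 FPKM in WT OIR. The terminal components C6, C7 and C8a and C5 (Hc) had means of 0.036 FPKM or less in every group, and Mbl2 was listed at 0 in every library. No other component was called in either experiment by limma. At an unadjusted p of 0.05 or less, C8b had the higher mean in Atf6-/- OIR, at 0.188 ± 0.075 against 0.078 ± 0.054 FPKM (SD, n = 5), near the lowest levels that the tables hold. C2, the neighbour of Cfb that serves the classical convertase, had the higher mean after Ceapin-A7 (log2 fold change 1.14, SE 0.47, unadjusted p = 0.0347, adjusted p = 0.472 by limma). It was at 1.37, 0.33, 0.83, 0.6 and 0.47 FPKM in PBS and at 1.49, 1.51, 5.17, 0.65 and 1.09 FPKM in Ceapin-A7, where replicate 3, the library of lower depth, held the high value. Without that library the log2 fold change was 0.72, and with a pseudocount of 1 it was 0.66, and over all alternatives the unadjusted p by limma went up to 0.104.

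Of 15 other regulators 12 were tested in each experiment, and 0 were called by limma. Clusterin (Clu) and vitronectin (Vtn), which stop the membrane attack complex, were the most abundant, at 529 and 458 FPKM in WT OIR. For the knockout only Csmd3 passed an unadjusted p of 0.05, with 0.884 ± 0.0913 against 1.12 ± 0.171 FPKM (SD, n = 5, log2 fold change 0.32). After Ceapin-A7 Cr1l and Vtn were higher in mean (log2 fold changes 0.30 and 0.29) and Csmd2 lower (-0.25), all at an unadjusted p of 0.05 or less and adjusted p-values above it. The median over the tested regulators was 0.04 for the knockout and 0.11 for Ceapin-A7.

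The complement receptors tested, some of which read C3 fragments on phagocytes, had lower means in Atf6-/- OIR. All 6 receptors tested of 9 listed were lower (median log2 fold change -0.25), 3 of them at an unadjusted p of 0.05 or less and 0 at an adjusted p under 0.05 by limma. Over all genes 5.83% were lower at this unadjusted threshold. Itgam and Itgb2, the chains of complement receptor CR3, were at 1.97 ± 0.3 and 1.59 ± 0.3 FPKM in WT OIR and at 1.55 ± 0.18 and 1.11 ± 0.206 FPKM in Atf6-/- OIR (SD, n = 5). Their libraries overlapped between the genotypes, with Itgb2 at 1.61, 1.29, 1.88, 1.88 and 1.27 FPKM against 1.01, 1.09, 1.47, 0.96 and 1.03 FPKM. The log2 fold changes were -0.31 for Itgam and -0.46 for Itgb2, with adjusted p-values of 0.367 and 0.357 by limma. Cd93, once described as a C1q receptor and rich in endothelial cells, was at 11.2 ± 3.17 against 7.91 ± 0.899 FPKM (SD, n = 5, log2 fold change -0.44, adjusted p = 0.366 by limma). After Ceapin-A7 no receptor reached an unadjusted p of 0.05 (median -0.08), and the difference of the effects had 0 of 6 receptors at an unadjusted p of 0.05 or less.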

How the data were processed

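Whole-retina RNA was sequenced from 20 libraries, 5 per group. The authors made stranded mRNA libraries, aligned reads to GRCm39 with HISAT2 2.0.4 and computed FPKM per gene with RSEM 1.2.18, and they used DESeq2 1.4.5 for their own comparisons. The deposited FPKM values, given to 2 decimals in 4 tables, were used here, so the exact read depth of each library is unknown. The study's methods state only a common depth for its samples. Values were scaled by median-of-ratios factors, log2(FPKM + 0.1) was taken for genes with a mean FPKM above 0.1, and limma 3.58.1 (R 4.3.3) with an intensity trend was fitted to all genes, with Benjamini-Hochberg adjustment over all genes. Each experiment was fitted on its own 10 libraries, and the difference of effects and WT OIR minus PBS on all 20. Single values were also compared by two-sided exact permutation over 252 arrangements. The steps were tested on simulated data.

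The 9 members, the 13 other gene lists and the tests were chosen with earlier results of these data known. Named genes are the members, list genes at an unadjusted p of 0.05 or less in either experiment (at most 4 per list and comparison), the most abundant gene of a list and the 3 genes most like each member, of which 1 gene is not reported here. Other pseudocounts, filters, scalings, limma settings, a replicate block and leaving out libraries were tried. Promoters are those of RefSeq on GRCm38.p6, matched by symbol.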

Additional observations from a re-analysis of the deposited data

Results flagged for a closer look

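In 2 of 36 groups of 5 values (9 members in 4 groups), 1 library lay far from the rest of its group by Dixon's test, where chance gives about 1 in 20. C4b was at 12.18 FPKM in PBS replicate 1, with the nearest PBS library at 6.74 FPKM, and the gap took 0.720 of the range of the group. Cfb was at 0.99 FPKM in the same library, with the nearest at 0.21 FPKM, and the gap took 0.867 of the range. Both values are in the library that was also the highest of its group for C3, Cfi, Serping1 and the C1q chains and for the summed microglia and fibroblast genes. Its microglia sum rested largely on Olfml3, at 37.6 FPKM. The part of these levels in the C4b and Cfb values was not tested.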

How the results depend on the processing

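Of 36 log2 fold changes of members, 25 kept their sign in every alternative run, and 58 of 910 alternatives had a changed sign. With array weights, C3 (adjusted p = 0.0360 by limma) and C4b (0.0299), 2 members, were called for the knockout, where 2772 of all 15704 genes were called against 5 without weights. At an unadjusted p of 0.05 or less 1 member passed for the knockout with a pseudocount of 1, no filter, no trend or a fit of all 20 libraries, and 1 to 3 when 1 library was left out. Over all genes 1898 to 2728 passed in the former settings and 1091 to 4014 in the latter. The member count was 3 with quantile normalization (2028 of 15704 genes passed) and with array weights (5750 of 15704), where Cd55 joined C3 and C4b. It was also 3 without WT OIR replicates 2 and 5 (1431 of 15707). Ceapin-A7 gave 1 member with quantile normalization (1595 of 15408 genes passed) and 0 to 2 when 1 library was left out (953 to 2532 genes). The difference of effects gave 0 to 1 (1007 to 3800 genes), and 1 without PBS replicate 1 and Ceapin-A7 replicate 3 (1233 genes). For WT OIR minus PBS 4 to 7 members were called when 1 library was left out (8753 to 9235 genes), 6 with quantile normalization (9171 genes) and 5 with array weights (9702 genes). With array weights the sign turned for C1qc in the knockout (0.073), after Ceapin-A7 (-0.028) and in the difference (0.11), for Cfb after Ceapin-A7 (-0.20), in the difference (0.021) and in WT OIR minus PBS (-0.19), and in the difference for Cd55 (0.13) and Serping1 (0.14). Cfb also turned after Ceapin-A7 with a pseudocount of 1 (-0.036), rescaling to TPM (-0.0063) and quantile normalization (-0.011), and in WT OIR minus PBS with a pseudocount of 1 (-0.0012) and quantile normalization (-0.26). In the difference, Cd55 turned with a pseudocount of 1 (0.027), TPM (0.0056) and quantile normalization (0.063), and Cfi without PBS replicate 1 and Ceapin-A7 replicate 3 (-0.079). The cause was not tested. Leaving out 1 library, the range was -0.14 to 0.057 for C1qc in the knockout. After Ceapin-A7 it was -0.030 to 0.17 for C1qc, -0.27 to 0.20 for C4b, -0.20 to 0.43 for Cfb and -0.37 to 0.050 for Serping1. In the difference it was -0.22 to 0.0063 for C1qc, -0.097 to 0.28 for Cfi, -0.086 to 0.13 for Cd55 and -0.26 to 0.15 for Serping1, and for Cfb in WT OIR minus PBS -0.17 to 0.49. Of genes at an unadjusted p of 0.05 or less, 54.3% were higher in the knockout, 30.5% with FPKM as deposited and 31.0% with TPM, and 48.6% were higher after Ceapin-A7 and 26.8% with TPM. Cfb and Cd55 had no value under a mean FPKM above 1. Replicate numbers did not pair the libraries: same-numbered libraries had r from -0.269 to 0.210 in OIR and from -0.201 to 0.291 at P30, with 1 of 5 pairs over 0.1 in each. With the replicate block 0 members were called for the knockout (C3 unadjusted p = 0.00524 by limma) and 5 of all genes, and Cd55 in WT OIR minus PBS had an adjusted p of 0.0519 by limma.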
